A study of Rattus norvegicus with 6 samples.

Results

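The RNA exosome subunits described here are 10 genes listed by name. The list was chosen by the measured signal of 1 of them, Exosc3, which fell strongly in the renal cortex of rats given 2,2-bis(bromomethyl)-1,3-propanediol (BBMP), a brominated diol. Of these, 7 were matched by RefSeq accession to probes on the array: Exosc2, Exosc3, Exosc4, Exosc5, Exosc7, Exosc9 and Dis3, with 10 probes in all, among 31582 genes or sequences tested. Exosc1, Exosc8 and Exosc10 were matched to no probe by accession and are not analysed here. All 7 matched genes passed the filter on dim probes, with each of the 10 probes well above background on all 6 arrays and saturated on 0.

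Total RNA of the renal cortex was measured on 1-colour Agilent arrays, 1 per rat, in male Sprague-Dawley rats (Crl:CD(SD)) bought at 5 weeks of age and kept on a basal diet. The 3 control rats were dosed with the corn oil vehicle for 4 weeks, and the 3 BBMP rats received 1000 mg/kg/day of BBMP for 4 weeks. The route is not given in the sources used here, and the series describes the 3 rats of each group as biological replicates. All 3 control arrays lay on 1 slide and all 3 BBMP arrays on another, scanned separately, so the effects of the compound, the slide and the scan cannot be told apart for any value below. Cortex is a mixture of cell types, and a lower signal from fewer cells of a type cannot be told apart from less RNA per cell.

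The RNA exosome is a complex that degrades and trims RNA from its 3′ end, in the nucleus and in the cytoplasm. Its core is a ring of RNase PH-like subunits, among them Exosc4, Exosc5, Exosc7, Exosc8 and Exosc9, topped by a cap of the RNA-binding subunits Exosc1, Exosc2 and Exosc3. In animals the ring and cap hold no active site, and RNA threaded through them is cut by the catalytic subunits Dis3 or Exosc10. The complex matures ribosomal and small nucleolar RNA, removes faulty transcripts and completes mRNA decay after the poly(A) tail is shortened, and inherited defects of Exosc3 in people cause pontocerebellar hypoplasia.

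Signals are given relative to the array's 75th percentile, the value that exceeds 75% of the probes of that array, so that a signal of 1 equals that percentile. The percentile lay between 943 and 950 scanner units in control and between 1245 and 1259 in BBMP arrays, and 67.2% to 72.7% of probes were well above background. Differences are log2 values, BBMP minus control. A gene is called higher or lower where limma, fitted to all 31582 genes or sequences, gave a Benjamini-Hochberg adjusted p under 0.05, which held for 17.9% of them, 10.2% higher and 7.68% lower; 36.6% had an unadjusted p under 0.05.

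All 6 proximal tubule markers, which include Slc34a1 and Lrp2, were well above background on all arrays, and limma called 0 of them, with 0 at an unadjusted p under 0.05. Their summed signal was 1023 to 1114 in control and 1055 to 1073 in BBMP samples. Umod, the 1 of 2 thick ascending limb markers matched to a probe, read 231 to 450 in control and 285 to 409 in BBMP samples and did not pass (limma adjusted p = 0.823). Summed signals of the leukocyte list were 2.94 to 3.20 in control and 2.71 to 3.35 in BBMP samples. Of its 5 genes, 4 were well above background on all arrays, with 0 called by limma and 0 at an unadjusted p under 0.05. Itgam, well above background on 3 arrays, was not tested. Urothelial and medullary markers summed to 0.357 to 0.423 and 0.430 to 0.554, and adrenal markers to 0.263 to 0.331 and 0.384 to 0.443. Upk1b and Cyp21a1 were called higher, and Upk2, Cyp11b1 and Star were above background on 0 arrays. Upk1a (0.040, limma adjusted p = 0.933), Upk3a (0.84, 0.276), Slc14a2 (0.26, 0.082) and Cyp11b2 (-0.29, 0.342) were not called. Cyp21a1 made up most of the adrenal sum, at 0.231 to 0.299 in control and 0.359 to 0.414 in BBMP samples. Adipocyte markers summed to 0.727 to 1.07 and 0.980 to 1.46. Only Adipoq was tested among them, and it was not called (0.47, limma adjusted p = 0.183). Plin1 was matched to no probe, and Lep was above background on 0 arrays. The part of these cell types in the results below was not tested.

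The sequences before the start sites are shown for the genes with the lower signals, Exosc3, Exosc7 and Exosc9, and for Exosc5, the subunit with the largest positive difference in the gene-level fit. They are the 250 bases before the RefSeq start in the GRCr8 assembly, 5′ to 3′ on the gene's strand, at chr5:64374712-64374961 (minus strand) for Exosc3, chr8:131650813-131651062 (plus) for Exosc7, chr2:121343953-121344202 (plus) for Exosc9 and chr1:90295659-90295908 (plus) for Exosc5. Capitals mark matches, on either strand, to CGGAAG (the core bound by ETS factors), GGGCGG (SP factors), CCAAT (NFY), GCATGCG (inside the NRF1 motif), AAGATGG (inside the YY1 motif), CACGTG (E-box) and TGACGT (inside the cAMP response element); overlapping matches were counted.
Exosc3: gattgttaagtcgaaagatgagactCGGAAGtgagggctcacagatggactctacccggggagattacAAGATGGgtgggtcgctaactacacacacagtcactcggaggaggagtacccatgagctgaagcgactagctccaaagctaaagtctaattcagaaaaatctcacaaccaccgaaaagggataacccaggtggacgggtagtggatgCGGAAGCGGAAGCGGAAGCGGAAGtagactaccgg
Exosc7: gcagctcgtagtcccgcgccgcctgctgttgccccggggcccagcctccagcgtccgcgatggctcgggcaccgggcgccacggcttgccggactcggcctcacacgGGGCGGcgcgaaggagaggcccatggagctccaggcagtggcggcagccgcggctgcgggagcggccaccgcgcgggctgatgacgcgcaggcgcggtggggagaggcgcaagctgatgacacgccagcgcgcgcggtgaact
Exosc9: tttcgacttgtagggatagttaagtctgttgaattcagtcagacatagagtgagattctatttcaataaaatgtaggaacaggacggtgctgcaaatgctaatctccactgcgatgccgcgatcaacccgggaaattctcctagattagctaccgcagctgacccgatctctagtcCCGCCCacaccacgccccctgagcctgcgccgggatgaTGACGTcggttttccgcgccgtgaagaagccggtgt
Exosc5: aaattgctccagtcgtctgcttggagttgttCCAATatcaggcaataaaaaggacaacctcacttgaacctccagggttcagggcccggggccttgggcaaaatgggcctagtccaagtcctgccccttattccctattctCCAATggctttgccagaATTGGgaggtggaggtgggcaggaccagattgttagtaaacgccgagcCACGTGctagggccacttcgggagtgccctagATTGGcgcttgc

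The Exosc3 window held 5 matches to CGGAAG, 4 of them in tandem just before the start. The motif was widened to this core after the sequence had been seen. At least 1 match was present in 13.9% of 33469 RefSeq windows of the same length, and 5 or more in 0.0209%. None of the other 3 printed windows held CGGAAG. Of the windows not printed, that of Dis3 held 2 matches and that of Exosc2 held 0, so the motif was not particular to Exosc3 among the subunits. Exosc3 also held 1 AAGATGG, present in 4.62% of windows. Exosc5 held 4 CCAAT matches, present at least once in 34.0% of windows, and 1 E-box, in 5.59%. Exosc7 and Exosc9 each held 1 SP match, present in 30.5% of windows, and Exosc9 1 TGACGT, in 6.95%. GC content was 76.0% for Exosc7, against 51.6% for Exosc3, 52.0% for Exosc9, 54.4% for Exosc5 and a median of 51.2% over all windows. No motif searched was present in all of Exosc3, Exosc7 and Exosc9.

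Of the cap, Exosc3 was measured by 1 probe (A_64_P125680, NM_001107936). Its relative signal was 1.00, 1.28 and 1.25 in control replicates 1, 2 and 3 and 0.376, 0.413 and 0.406 in BBMP replicates 1, 2 and 3. Every BBMP value lay below every control value, and the highest BBMP and lowest control values were 1.28 apart on the log2 scale. The mean fell from 1.18 ± 0.15 to 0.399 ± 0.020 (SD, n = 3 each), a log2 difference of -1.55, or 34.05% of the control level. This fall is the value for which the list was chosen, so it is given as a description without a test.

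The scanner's own signals showed the same order before scaling. The processed signal of Exosc3 was 950, 1210 and 1180 units on the control arrays and 469, 514 and 511 units on the BBMP arrays, over local backgrounds of 43 to 59 units. The scaling enlarges the gap, because the 75th percentile was higher on the BBMP arrays. In the brightness range of Exosc3 the median log2 difference over the 1000 nearest genes was -0.0068. Exosc3 had the decrease ranked 3 among the 11589 genes with a symbol whose probe was well above background on every array, of which 28 were lower by 2-fold or more.

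**Figure D1:**
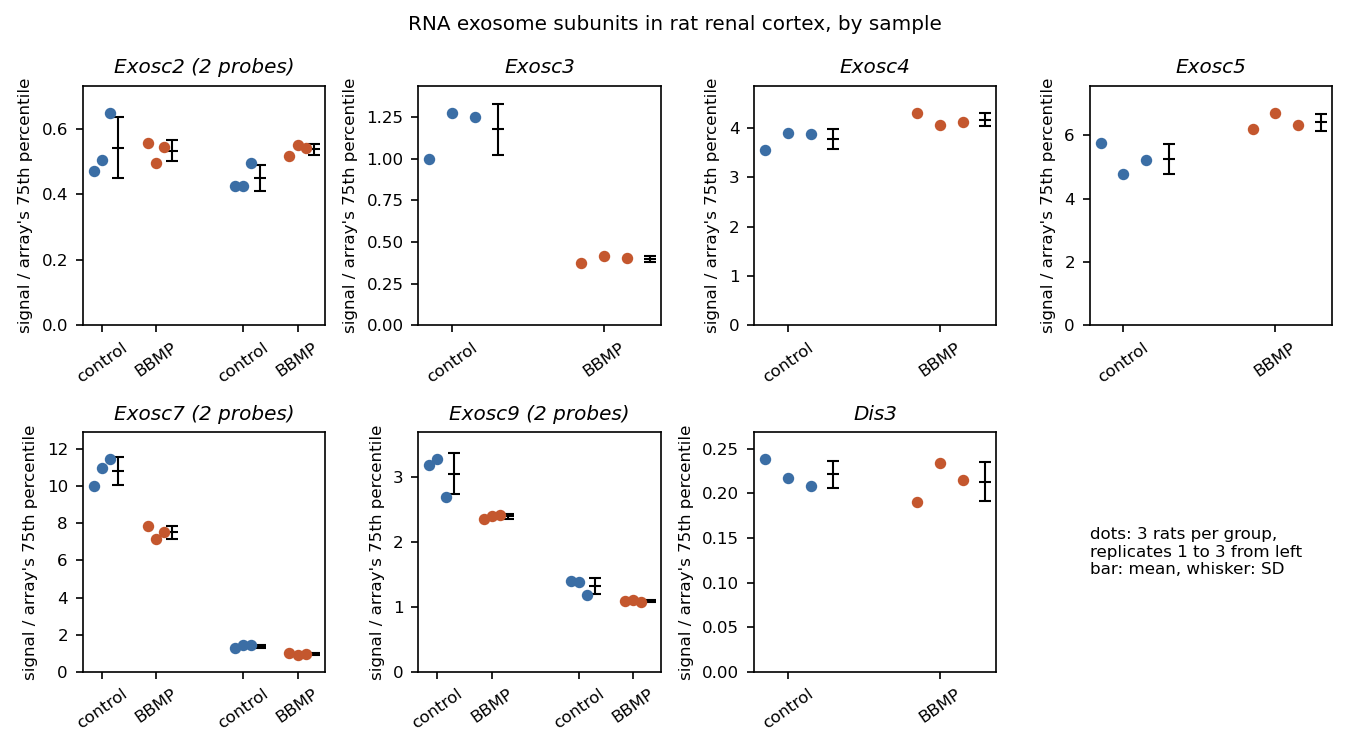
Signal relative to the array's 75th percentile (linear axis from 0) of 7 RNA exosome subunits, 1 dot per rat, with the mean and SD of 3 rats beside each group; where a gene has 2 probes, the brighter is on the left. Exosc3 and both probes of Exosc7 and Exosc9 sit lower in every BBMP sample than in any control sample, Exosc4 and Exosc5 sit higher, and the groups overlap for Dis3 and the brighter probe of Exosc2.

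The Exosc3 spot lies in row 1 and column 5 of an array of 384 rows and 164 columns, at its edge. Of the 15 other tested probes in rows 1 to 3 and columns 1 to 10, 0 were lower by 1 or more on the log2 scale; their differences ran from -0.35 to 0.18 with a median of -0.0033. Across the 100 other tested probes of row 1 the differences ran from -0.81 to 0.56. The fall of Exosc3 was larger than that of any of these spots, which follows from its choice for a strong fall. An effect of the position on the array was not tested.

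Exosc2, the other cap subunit measured, did not pass the test. Its brighter probe read 0.473, 0.506 and 0.650 in control and 0.558, 0.497 and 0.546 in BBMP replicates 1 to 3, and the groups overlapped. The difference was -0.014 ± 0.13 (SE; limma adjusted p = 0.952), with a 95% interval of -0.34 to 0.32. The dimmer probe read 0.427, 0.426 and 0.496 in control and 0.519, 0.552 and 0.543 in BBMP samples, without overlap, at 0.26 ± 0.08 (SE; limma over all probes, adjusted p = 0.076). The probes of Exosc2 differed in sign, and neither interval reached the size of the Exosc3 difference.

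Exosc7, a ring subunit, was the only one of the 6 measured subunits other than Exosc3 that was called, and it fell on both of its probes. The brighter probe read 9.997, 11.0 and 11.5 in control and 7.86, 7.14 and 7.55 in BBMP replicates 1 to 3, with every BBMP value below every control value. The mean went from 10.8 ± 0.7 to 7.52 ± 0.36 (SD, n = 3 each), a 1.44-fold decrease at a log2 difference of -0.52 ± 0.08 (SE; limma adjusted p = 0.0159). The dimmer probe read 1.28, 1.43 and 1.43 in control and 1.03, 0.922 and 0.979 in BBMP samples. Its difference was -0.50 ± 0.08 (SE; limma over all probes, adjusted p = 0.0168), close to that of the brighter probe, with both read from the same 6 RNA samples. Before scaling, the groups overlapped on both probes of Exosc7. The processed signal was 9495 to 10801 units in control and 8885 to 9789 in BBMP samples on the brighter probe. On the dimmer probe it was 1218 to 1354 and 1148 to 1280 units. The call of Exosc7 was lost without control replicate 2 (difference -0.51, limma adjusted p = 0.053) and without BBMP replicate 1 (-0.56, 0.052), 2 (-0.49, 0.058) or 3 (-0.53, 0.051). With the slide row as a block, the difference was -0.61 (limma adjusted p = 0.095); row 1 of the slides held all 3 BBMP arrays and control replicate 3, and row 2 the other 2 controls, so this difference is that of BBMP from 1 control array.

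Exosc9, the ring subunit known in people as the PM/Scl-75 autoantigen, had lower scaled signals on both probes but narrowly missed the threshold. The brighter probe read 3.17, 3.27 and 2.68 in control and 2.35, 2.40 and 2.42 in BBMP replicates 1 to 3, without overlap. The difference was -0.34 ± 0.09 (SE; limma adjusted p = 0.0509). The dimmer probe read 1.39, 1.38 and 1.17 in control and 1.09, 1.10 and 1.07 in BBMP samples, at -0.27 ± 0.08 (SE; limma over all probes, adjusted p = 0.076). Before scaling, Exosc9 was not lower in BBMP samples. The processed signal of the brighter probe overlapped, at 2530 to 3098 units in control and 2925 to 3044 in BBMP samples. That of the dimmer probe was higher in BBMP samples, at 1107 to 1321 units in control and at least 1350 in BBMP samples. Control replicate 3 was the lowest control on both probes, and without it the difference was -0.43 (limma adjusted p = 0.032). Exosc9 was also called with median scaling (-0.42, limma adjusted p = 0.031) and with normexp background correction (-0.41, limma adjusted p = 0.022). Without control replicate 2 the difference was -0.29 (limma adjusted p = 0.124), and without control replicate 1 it was -0.31 (limma adjusted p = 0.128). Against control replicate 3 alone, as the slide row block gives it, it was -0.17 (limma adjusted p = 0.283).

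Exosc4 and Exosc5, RNase PH-like subunits of the ring, had higher signals in BBMP samples and did not pass. Exosc5 read 5.74, 4.78 and 5.22 in control and 6.19, 6.72 and 6.33 in BBMP replicates 1 to 3, every BBMP value above every control value. Its difference was 0.29 ± 0.09 (SE; limma adjusted p = 0.0678). Exosc4 read 3.55, 3.89 and 3.89 in control and 4.31, 4.06 and 4.12 in BBMP samples, also without overlap. Its difference was 0.14 ± 0.07 (SE; limma adjusted p = 0.177). With normexp, Exosc5 was called higher (0.38, limma adjusted p = 0.019) and Exosc4 was at 0.016.

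Dis3, the catalytic subunit with both exonuclease and endonuclease activity, did not pass, and its groups overlapped. It read 0.238, 0.217 and 0.208 in control and 0.190, 0.234 and 0.215 in BBMP replicates 1 to 3. The difference was -0.056 ± 0.10 (SE; limma adjusted p = 0.718), with a 95% interval of -0.30 to 0.19, while the median difference of the 1000 genes nearest in brightness was 0.069. The ribonuclease gene Dis3l, whose product joins the cytoplasmic exosome, was at -0.012 ± 0.071 (SE; limma adjusted p = 0.916), with the opposite sign on its other probe. Exosc6, a further ring subunit, was matched to no probe.

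**Figure D2:**
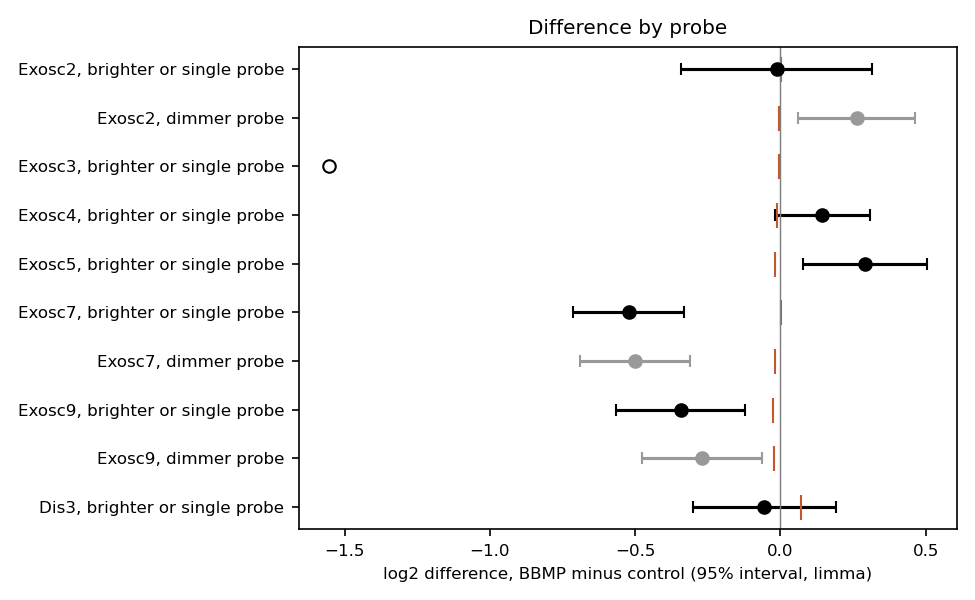
Log2 difference, BBMP minus control, for the 10 probes of 7 RNA exosome subunits, with 95% intervals from limma over all probes; black marks the brighter or single probe of a gene, grey the dimmer one, the open circle Exosc3 without an interval, and the red tick the median of the 1000 genes nearest in brightness. Exosc3 stands at -1.55, both Exosc7 probes near -0.5, and the remaining probes between -0.34 and 0.29.

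Of the 6 measured subunits other than Exosc3, 1 was called lower and 0 higher, where 17.9% of all genes were called in this contrast. Groups did not overlap in 4 of the 6, 2 lower and 2 higher, where 43.6% of all genes did not overlap, 18.6% of them lower and 25.0% higher as shares of all genes. Their median difference was -0.035, against 0.049 over all genes. On the probe level, 2 of the 9 probes were called, both of Exosc7, where 17.8% of all probes were called. With the contrast used to choose the list, these counts are given as a description. The subunits measured by more than 1 probe, 3 in number, gave the same sign on both probes for Exosc7 and Exosc9 and not for Exosc2.

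**Figure D3:**
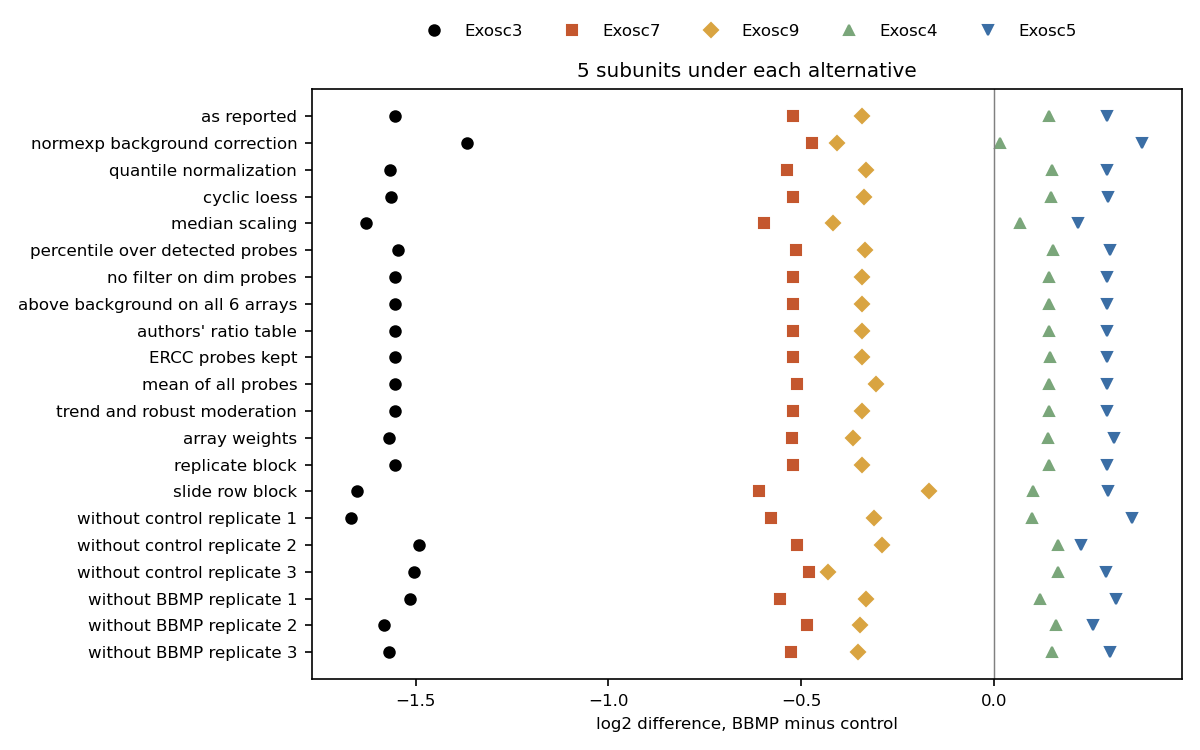
Log2 difference of 5 subunits (horizontal axis) as reported and under 20 alternative settings (vertical axis), 1 symbol per gene. Exosc3 stays between -1.67 and -1.37, Exosc7 between -0.61 and -0.47 and Exosc9 between -0.43 and -0.17 (the last with the slide row block, against 1 control array), while Exosc5 stays between 0.22 and 0.38 and Exosc4 between 0.016 and 0.17.

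The tested genes nearest to Exosc3 on its chromosome had no difference as large as its fall. In the order of the RefSeq table, used for order only, the 3 nearest genes with a tested probe on each side were Trmt10b, Polr1e and Zbtb5, and Dcaf10, Slc25a51 and Aldh1b1. In that order, 0, 7, 9, 3, 4 and 8 genes of the table lay between these and Exosc3. Limma called 0 of these 6, and 4 had an unadjusted p under 0.05, as 36.6% of all genes did. Trmt10b, a tRNA methyltransferase gene that directly adjoins Exosc3, was at -0.18 ± 0.06 (SE; limma adjusted p = 0.0917). Polr1e, a subunit of RNA polymerase I, was at -0.34 ± 0.14, Zbtb5 at 0.16 ± 0.06, Dcaf10 at 0.21 ± 0.06 and Slc25a51, a mitochondrial carrier, at 0.21 ± 0.07 (SE). Aldh1b1, a mitochondrial aldehyde dehydrogenase, was at -0.84 ± 0.84 (SE) with overlapping groups and a control spread larger than its mean, 0.441 ± 0.476 (SD, n = 3). Its difference is too imprecise to set against that of Exosc3.

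The 5 named genes with the profile most like that of Exosc3 over the 6 samples, by root mean square distance of the centred log2 values among 11588 candidates, were Clca4, Pawr, Gabbr2, Qrfpr and Mt3. The distance was 0.25 for Clca4, a gene of the calcium-activated chloride channel regulator family, and 0.31 for Pawr, a regulator of apoptosis. It was 0.34 for Gabbr2, a GABA-B receptor subunit, 0.35 for the receptor gene Qrfpr and 0.36 for Mt3, a metallothionein. Clca4 read 0.307, 0.333 and 0.361 in control and 0.155, 0.146 and 0.164 in BBMP replicates 1 to 3, a difference of -1.10. Pawr was at -1.03, Gabbr2 at -1.83, Qrfpr at -0.90 and Mt3 at -0.93. Only Gabbr2 among these had a larger decrease than Exosc3. None of the other 6 subunits was among the 5, which follows from their smaller differences and is no separate result.

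The proteins that feed RNA to the exosome were taken from fixed lists. Among nuclear cofactors, 3 of 13 tested fell and 1 rose, where 7.68% and 10.2% of all genes did, with a list median of -0.23. Zcchc7, the RNA-binding subunit of the TRAMP complex, fell 1.46-fold (-0.55 ± 0.08, SE; limma adjusted p = 0.0157). Tent4a, a noncanonical poly(A) polymerase, fell 1.32-fold (limma adjusted p = 0.0165), and Ncbp1, the large cap-binding subunit, fell 1.39-fold (limma adjusted p = 0.0125). Nop53, which guides the exosome to pre-ribosomes, rose 1.23-fold (limma adjusted p = 0.0253). With the mean of all probes, Tent4a (-0.25) and Nop53 (0.28) were not called. Mtrex, the nuclear helicase of the exosome, was at -0.13 ± 0.06 and Mphosph6, a core-bound cofactor, at 0.037 ± 0.096 (SE), and neither passed.

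Among cytoplasmic cofactors, Skic2, the helicase of the SKI complex, rose 1.24-fold (0.31 ± 0.07, SE; limma adjusted p = 0.0401), and the other 3 of 4 tested were not called. Of all genes, 10.2% were called higher. Skic2 did not pass with median scaling (0.24, limma adjusted p = 0.085) or with no filter on dim probes (limma adjusted p = 0.058). Skic3 was matched to no probe.

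Among AU-rich element binding proteins, 2 of 7 tested fell and 0 rose, where 7.68% and 10.2% of all genes did. Elavl1, which stabilises bound mRNA, fell 1.40-fold (limma adjusted p = 0.0121), and Hnrnpd, which promotes decay, fell 1.29-fold (limma adjusted p = 0.0274). Hnrnpd was at -0.057 with normexp and was not called there, nor with the mean of its probes. Zfp36, which recruits deadenylases, was at 0.15 ± 0.46 (SE) and Zfp36l1 at -0.20 ± 0.11 (SE), and neither passed.

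Deadenylation, the step before exosome decay of mRNA, had the highest share of calls among the lists: 7 of 9 tested genes fell and 0 rose, where 7.68% and 10.2% of all genes did, with a list median of -0.32. These are scaled signals, and whether the genes were lower before scaling is not shown here. Cnot6l, a deadenylase of the CCR4-NOT complex, fell 1.49-fold on its brighter probe (-0.58 ± 0.07, SE; limma adjusted p = 0.0117). With the mean of its probes Cnot6l was at -0.29 and still called (limma adjusted p = 0.033). The deadenylase genes Cnot8 and Cnot7 fell 1.32-fold and 1.27-fold, the scaffold Cnot1 fell 1.27-fold, and Pan3, a subunit of the PAN2-PAN3 deadenylase, fell 1.24-fold (limma adjusted p from 0.0157 to 0.0248). Cnot3 and Cnot9 were the other genes called, each with another probe of the opposite sign, and Cnot2 was matched to no probe. The count of 7 was the same with normexp, quantile normalization, cyclic loess and median scaling. It was 5 with the mean of all probes, where Cnot3 was at 0.12, and 5 with no filter on dim probes. Without 1 control sample it was 2, 1 and 4 for replicates 1, 2 and 3, and without 1 BBMP sample 1, 0 and 2, while 7 of the 9 had an unadjusted limma p under 0.05 in each of these, as did 30.2% to 34.5% of all genes. It was 0 with the slide row as a block, where BBMP is set against 1 control array.

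**Figure D4:**
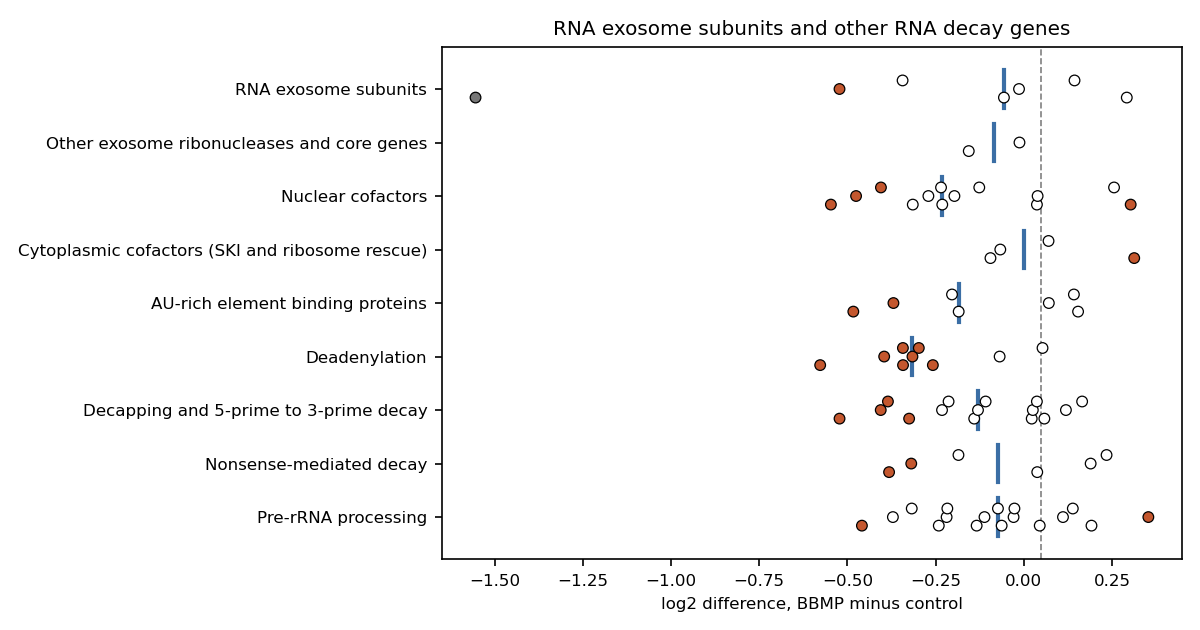
Log2 differences, BBMP minus control, of tested genes in each RNA decay list and of the RNA exosome subunits; filled red circles passed the limma threshold, open circles did not, grey is Exosc3, blue bars are list medians and the dashed line is the median of all genes, 0.049. The deadenylation list lies lowest, with a median of -0.32, and Exosc3, chosen for its fall, lies apart from every other gene shown.

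In decapping and 5′-to-3′ decay, 4 of 15 tested genes fell and 0 rose, where 7.68% and 10.2% of all genes did. Lsm14a, a P-body protein, fell 1.44-fold (limma adjusted p = 0.0123), and the Sm-like genes Lsm3, Lsm5 and Lsm7 fell 1.32-fold, 1.31-fold and 1.25-fold (limma adjusted p from 0.0177 to 0.0305). Lsm14a and Lsm7 each had 1 other probe of the opposite sign, and with the mean of all probes they were at -0.14 and -0.11 and not called. Xrn2, the nuclear 5′-to-3′ exonuclease, was at -0.14 ± 0.06 (SE) and did not pass, and Xrn1 was matched to no probe.

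Nonsense-mediated decay had 2 of 6 tested genes lower and 0 higher, where 7.68% and 10.2% of all genes were. Of the 2 lower genes, Upf3b fell 1.25-fold (limma adjusted p = 0.0280). Upf2 was at 0.19 ± 0.07 (SE) and did not pass, and Upf1 was matched to no probe. With normexp 1 gene of the list rose and 0 fell, with Upf3b at -0.19 (limma adjusted p = 0.059). In pre-rRNA processing, where the exosome trims ribosomal RNA, 1 of 17 fell and 1 rose. Together this was 11.8% of the list, below the 17.9% of all genes called. Npm1, a nucleolar chaperone, fell 1.37-fold (limma adjusted p = 0.0129), and Polr1a, the large subunit of RNA polymerase I, rose 1.28-fold (limma adjusted p = 0.0350), a call lost with median scaling (0.28, limma adjusted p = 0.060). Fbl, the rRNA methyltransferase, was at -0.22 ± 0.06 (SE; limma adjusted p = 0.0508) and Nop56, a snoRNP protein, at 0.045 ± 0.13 (SE).

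Over all lists, 73 genes were tested, of which 19 fell and 3 rose, against 7.68% and 10.2% of all genes. The median difference was -0.13, against 0.049 over all genes, which is not matched to the brightness of the listed genes. No listed gene had a decrease as large as that of Exosc3, which was chosen for its fall. The lowest was -0.58 for the brighter probe of Cnot6l. The number of calls was 27 with median scaling, 26 of them lower, and 27 with normexp, 22 of them lower. Over all genes, 3749 and 5098 were lower in these settings, against 2427 as reported. With cyclic loess the number of calls was 22. It was 16 with the mean of all probes or with no filter on dim probes. Without control replicate 1, 2 or 3 it was 7, 6 and 15, and without BBMP replicate 1, 2 or 3 it was 4, 0 and 7, while all genes called numbered 1828, 1537 and 4002, and 976, 3 and 1631.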

How the data were processed

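RNA of the renal cortex of 6 rats was labelled with Cy3, per the labels' protocols. Per the file headers, the arrays were read with Agilent Feature Extraction 10.7.1.1; the submitters' processing notes name version 10.7. Linear intensity is given in the deposited files, after background removal and detrending per the file headers, beside deposited flags scored 0 or 1. The authors' deposited table gives a ratio per probe. Each column lies closest to the scaled processed signal of a different replicate within its group, with median absolute log2 differences of 0.0036 to 0.0058. Replicate numbers are therefore uncertain and groups are not.

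Of 61657 probes not marked as controls, 84 ERCC probes and 10 with outlier flags were left out. Each processed signal was divided by its array's 75th percentile and taken as log2. A probe was tested if well above background on all 3 arrays of 1 group (42657 probes), and the brightest probe stood for a gene. Genes were named by RefSeq accession (27460 probes). BBMP and control were compared in R 4.3.3 with limma 3.58.1 (two-sided, Benjamini-Hochberg), over genes and over probes; the model was tested on simulated data. With 3 arrays a group, their number limits the precision.

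The members and lists were chosen with earlier results of these data known. Named were all subunits, the first 2 genes and up to 5 called genes of each list, the 3 tested neighbours of Exosc3 on each side and the 5 genes most like it; 1 called gene and 1 marker list are not reported here. Same-numbered samples deviated with correlations of -0.129, -0.091 and -0.084, so the numbers were not used as pairs. Alternatives covered background correction, normalization, filter, probe choice, blocks, array weights and leaving out samples; the planned normexp used the raw median signal. Plots were drawn in matplotlib 3.10.9 under Python 3.11.15.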

Additional observations from a re-analysis of the deposited data

How the results depend on the processing

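Exosc3 stayed between -1.67 and -1.37 on the log2 scale in 20 alternatives, lowest without control replicate 1 and highest with normexp. Leaving out 1 sample gave -1.67 to -1.49. The subunits other than Exosc3 that were called numbered 1 of 6 as reported, 3 with normexp or with trend and robust moderation, and 2 with median scaling, array weights or only probes above background on all 6 arrays; leaving out 1 sample gave 0 to 2. Their called probes numbered 2 of 9 as reported, 5 with normexp, 4 with median scaling and 4 with trend and robust moderation, and 0 to 5 without 1 sample. Over all genes limma called 5659, and 3 to 4002 without 1 sample; over the decay lists it called 22, and 0 to 15 without 1 sample, and in deadenylation 7, and 0 to 4. With the replicate block or the slide row block limma called 0 subunits, 0 of their probes, 0 decay genes, 0 deadenylation genes and 0 genes in all, with 9943 and 7288 genes, 3 and 2 subunits, 6 and 3 of their probes, 27 and 22 decay genes and 7 and 7 deadenylation genes at an unadjusted p under 0.05; each block leaves fewer residual degrees of freedom, and the slide row block sets the 3 BBMP arrays against control replicate 3 alone, the only control in their row, which is assumed to vary like the others. The labels' replicate numbers share only a number. The cause of the other changes was not tested. Signs did not change for Exosc3, Exosc4, Exosc5, Exosc7 or Exosc9 in any alternative, while Exosc2 changed sign in 4 and Dis3 in 2, uncalled throughout. Of calls over all genes, 57.1% were higher, against 36.4% with normexp, 35.9% with median scaling, 46.6% with cyclic loess and 47.2% with no filter. Normexp moved the median of all genes by -0.11 (log2); Exosc7 was still called there. The list of deadenylation genes was singled out after its values were seen.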
